A study of Mus musculus with 16 samples.

Results

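Glucose transport and glycolysis were followed through 31 genes in N25/2, a line of immortalized hypothalamic cells from mouse embryos, kept in medium that lacked amino acids (deprived) or held them (control). The genes came from a list of 35 names, read from the deposited table of array values and named through the array's annotation. A gene with more than 1 row is given by the brightest of them on average. The 31 genes stand among 19938 named genes in all. The other 4 listed genes, Gpi1, Pfkfb1, Gapdh and Eno1, were not analysed here, since only rows that name a single gene were used. The study ran whole-transcript arrays on 16 samples, with 4 deprived and 4 control samples at 5 h and 1 of each at 1, 2, 3 and 16 h. All samples came from this cell line. Cells of both groups were grown in the same serum-containing medium before the treatment; the glucose and serum content of the treatment media is not given in the sources used here. Nothing in the labels tells if the 4 numbered samples came from separate cultures. The p-values therefore describe the spread among these samples alone, and that spread could be technical.

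Cells take up glucose through carriers of the Slc2 family and split it to pyruvate in the cytosol. Hexokinase and phosphofructokinase catalyse early committing steps, and the PFKFB enzymes make or remove the sugar bisphosphate that activates phosphofructokinase. Pyruvate becomes lactate through lactate dehydrogenase or enters mitochondria, where the pyruvate dehydrogenase complex, held in check by the PDK kinases, makes acetyl-CoA. Brain tissue relies heavily on glucose as fuel, and many of these genes are known targets of the hypoxia-inducible factors and of Myc.

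Deposited values are log2 expression, with array medians of 7.02 to 7.12. Precision is limited by the number of arrays. All values below are on this scale, a difference is deprived minus control, and levels of different genes are not compared, since each has its own probes. At 5 h array 4 of each group was unlike the other arrays. It was the lowest or the highest array of both groups for 26 of the 31 genes, against 68.1 percent of all genes. Of the marker lists, 3 of 5 neural progenitor genes (Nes, Sox2 and Vim) lay above the median level of all genes, 7.475. Of 8 neuronal markers Stmn2 and Map2 did, whereas Snap25, Syt1, Tubb3, Rbfox3, Slc17a6 and Gad1 lay below it. Of 8 hypothalamic peptide genes Gnrh1 and Oxt lay above it and Pomc, Npy, Trh, Crh, Sst and Avp below, and 4 of 5 fibroblast genes (Col1a1, Col1a2, Col3a1 and Dcn) lay above. No astrocyte, oligodendrocyte or endothelial marker did, and of 5 microglial markers Cx3cr1 did. The mean level of the progenitor list was 9.2 to 9.58 on the deprived arrays and 9.59 to 9.74 on the control arrays, and that of the fibroblast list was 7.83 to 8.46 on the deprived and 8.31 to 8.95 on the control arrays. Their part in the results below was not tested. In bulk samples, fewer cells of a type and less RNA per cell cannot be told apart.

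Among these genes, glucose entry held the only change that passed the test. Slc2a1, the glucose carrier of most cells, stood at 11.49, 11.49, 11.6 and 11.4 on deprived arrays 1 to 4 at 5 h, and at 12.43, 12.24, 12.23 and 11.84 on control arrays 1 to 4. Every deprived array lay below every control array, and control array 4 was the lowest of its group. Slc2a1 fell 1.61-fold (log2 difference -0.69, SE 0.12, n = 4 per group, 95% interval -0.96 to -0.42) with an adjusted p of 0.012 in limma. It was the only one of the 31 genes to pass at 5 h, where 4.11 percent of all genes passed (2.41 percent higher and 1.7 percent lower in deprived cells). The call held in each of the 18 other settings run at 5 h, with an adjusted p between 6.16e-07 and 0.0495 in limma. Not all of these are separate checks for Slc2a1. The setting with all 16 arrays repeats the main fit, since groups of 1 array add no spread. Slc2a1 has 1 row, so settings that choose or average rows leave its values as they were. The limit to genes above the median level leaves them unchanged too.

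The arrays at the other times, which share no sample with the 5 h test, show the course of the Slc2a1 difference. Deprived cells held 12.25, 12.14, 11.94, 11.5 (mean of 4 arrays, SD 0.08) and 11.23 after 1, 2, 3, 5 and 16 h. Control cells held 12.25, 12.31, 12.31, 12.18 (mean of 4 arrays, SD 0.25) and 12.33 after the same times. The deprived level was thus lower at each later time, while the control values stayed within 11.84 to 12.43. The differences were 0.0, -0.17, -0.37, -0.69 and -1.1, the last being 2.14-fold lower in deprived cells. Averaged over 1, 2, 3 and 16 h, with 1 array per group and time, the difference was -0.41 (SE 0.18) and did not pass (adjusted p = 0.799 in limma). In that test 0 of 19938 genes passed (0.0 percent), and 1244 (6.24 percent) had an unadjusted p of at most 0.05. In a fit with all 16 arrays and time as a factor, the difference of Slc2a1 was -0.55 and passed (adjusted p = 0.0122 in limma), where 5.2 percent of all genes did. That fit weights by arrays, so the 5 h arrays, which already passed alone, make up 8 of its 16, and it is no mean over times of equal weight. Over 1, 2 and 3 h alone 0.176 percent of all genes and no member passed.

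**Figure D1:**
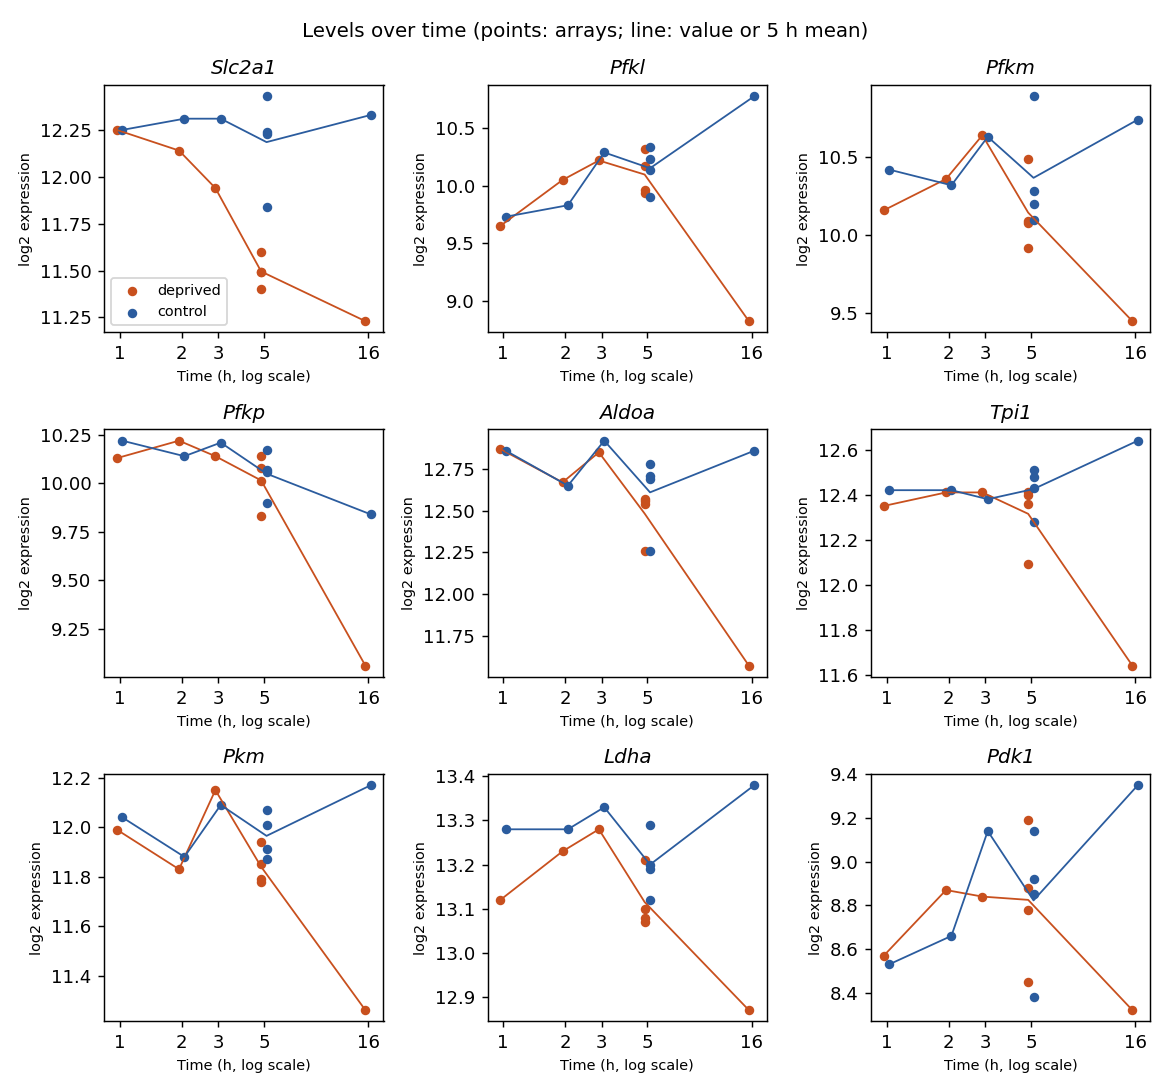
Log2 expression (y axis) of 9 genes in deprived (orange) and control (blue) cells at 1, 2, 3, 5 and 16 h (x axis, log scale). Points are arrays and lines join the single values and the 5 h means. Slc2a1 in deprived cells is lower at each later time, and for all 9 genes the deprived 16 h array is the lowest of the 16 arrays. The choice of genes fixes this last trait. All 9 are among the 12 of 31 members that have it, against 12.6 percent of all genes.

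None of the other 8 carriers passed at 5 h, and none differed by 0.5 or more at any time. Slc2a3, the carrier typical of neurons, was at 6.35 to 6.67 in deprived cells and 6.37 to 6.67 in control cells at 5 h. The groups overlapped fully, with a difference of 0.01 (SE 0.1, 95% interval -0.22 to 0.24, adjusted p = 1.0 in limma), and over the other times its differences lay between -0.09 and 0.05. Slc2a4, the insulin-responsive carrier, differed by -0.05 (SE 0.1) at 5 h and -0.22 at 16 h. Slc2a6 and Slc2a8, carriers of internal membranes, differed by 0.06 (SE 0.09) and -0.1 (SE 0.08) at 5 h. Slc2a9, a urate carrier, Slc2a10, Slc2a12 and the inositol carrier Slc2a13 differed by -0.01, 0.05, 0.12 and 0.03 at 5 h, and by -0.13, -0.16, -0.01 and 0.08 at 16 h. Of the 9 carriers, all but Slc2a6, Slc2a8 and Slc2a1 lay below the median level of all genes.

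Among the kinases that trap and commit glucose, Hk2, the inducible hexokinase, was higher in deprived cells at 5 h within each numbered pair. Its levels were 8.58, 8.62, 8.54 and 7.84 on deprived arrays 1 to 4 and 8.28, 8.09, 7.91 and 7.13 on control arrays 1 to 4. Array 4 was the lowest of both groups and made them overlap. The difference was 0.54 (SE 0.25; 1.45-fold) and did not pass (adjusted p = 0.403 in limma). It passed with the array number as a block (SE 0.07, adjusted p = 0.000477), and without both arrays numbered 4 it was 0.49 (SE 0.09, adjusted p = 0.00421). Hk2 differed by -0.07, -0.48 and 0.18 at 1, 2 and 3 h and by -0.05 at 16 h, with no constant sign. Its level also differed with time in both groups. The 6 arrays of 1 to 3 h held 8.78 to 9.52 and the 10 arrays of 5 and 16 h held 7.13 to 8.62, without overlap. Pfkfb3 alone of the other members had the same order (7.14 to 7.48 on the early arrays and 6.56 to 7.07 on the late ones), a pattern found in 0.487 percent of all genes.

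Hk1, the hexokinase most tissues share, gave unlike values in its 2 rows. In the row used here, which lists no RefSeq mRNA, its level was 11.53 to 12.12 in deprived and 11.54 to 11.93 in control cells at 5 h, a difference of 0.05 (SE 0.14), and the difference at 16 h was 0.17. In the other row, which lists RefSeq mRNAs, deprived arrays 1 to 4 stood at 10.18, 10.22, 10.34 and 10.48 and control arrays 1 to 4 at 10.59, 10.48, 10.53 and 10.77. That row was lower in each deprived array than in the control array of its number, with overlap across numbers and a mean difference of -0.29 (adjusted p = 0.173 in limma). At 16 h it held 9.83 in deprived and 10.63 in control cells, a difference of -0.8. The rows thus differ in sign, and the direction for Hk1 is not settled here.

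The 3 phosphofructokinase genes did not pass at 5 h. Pfkl, the liver-type subunit, was at 9.94 to 10.32 in deprived and 9.9 to 10.34 in control cells, and Pfkp, the platelet type, at 9.83 to 10.14 in deprived and 9.9 to 10.17 in control cells. Their differences were -0.06 (SE 0.12, 95% interval -0.33 to 0.21) and -0.03 (SE 0.09, 95% interval -0.24 to 0.18), each with an adjusted p of 1.0 in limma. Pfkm, the muscle type, was at 10.08, 10.09, 9.92 and 10.49 on deprived arrays 1 to 4 and at 10.28, 10.1, 10.2 and 10.89 on control arrays 1 to 4. Its groups overlapped, array 4 was the highest of both, and the difference of -0.22 (SE 0.18) had an adjusted p of 0.82 in limma (0.0575 with the block).

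The PFKFB genes differed in opposite directions at 5 h, by amounts that passed only in some settings. Pfkfb2 was at 9.35, 9.23, 9.28 and 9.51 on deprived arrays 1 to 4, against 9.03, 8.8, 8.86 and 9.22 on control arrays 1 to 4. Every deprived array lay above every control array, though only just, with 9.23 as the lowest deprived and 9.22 as the highest control value. The difference was 0.37 (SE 0.11, adjusted p = 0.117 in limma), and it passed with the block (SE 0.06, adjusted p = 0.00155), without control array 4 and after a further quantile normalization. Pfkfb3, known for its strong kinase side, was at 6.69, 6.82, 6.85 and 6.61 on deprived arrays 1 to 4, against 7.05, 7.01, 7.07 and 6.96 on control arrays 1 to 4. Again the groups did not overlap, here with the deprived arrays lower. Pfkfb3 had a mean of 7.02 over all arrays, below the median level of all genes, 7.475. Its difference was -0.28 (SE 0.08, adjusted p = 0.0988 in limma; 0.00883 with the block), and it too passed after the quantile normalization.

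Pfkfb4 was at 6.95, 7.09, 6.98 and 7.59 on deprived arrays 1 to 4, against 7.38, 7.36, 7.43 and 8.25 on control arrays 1 to 4. Array 4 was the highest of both groups and made them overlap. Pfkfb4 too lay below the median level of all genes, with a mean of 7.35 over all arrays. The difference was -0.45 (SE 0.22, adjusted p = 0.41 in limma; 0.00114 with the block). Without both arrays numbered 4 the differences of Pfkfb2, Pfkfb3 and Pfkfb4 were 0.39, -0.26 and -0.38, with adjusted p values of 0.00623, 0.0307 and 0.00315 in limma. At 1, 2, 3 and 16 h Pfkfb2 differed by -0.04, 0.26, 0.23 and 0.03, and Pfkfb3 by 0.12, 0.29, -0.33 and -0.12. Pfkfb4 was lower in deprived cells at all 5 times, with differences of -0.06, -0.11, -0.2, -0.45 and -0.65 in order of time.

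**Figure D2:**
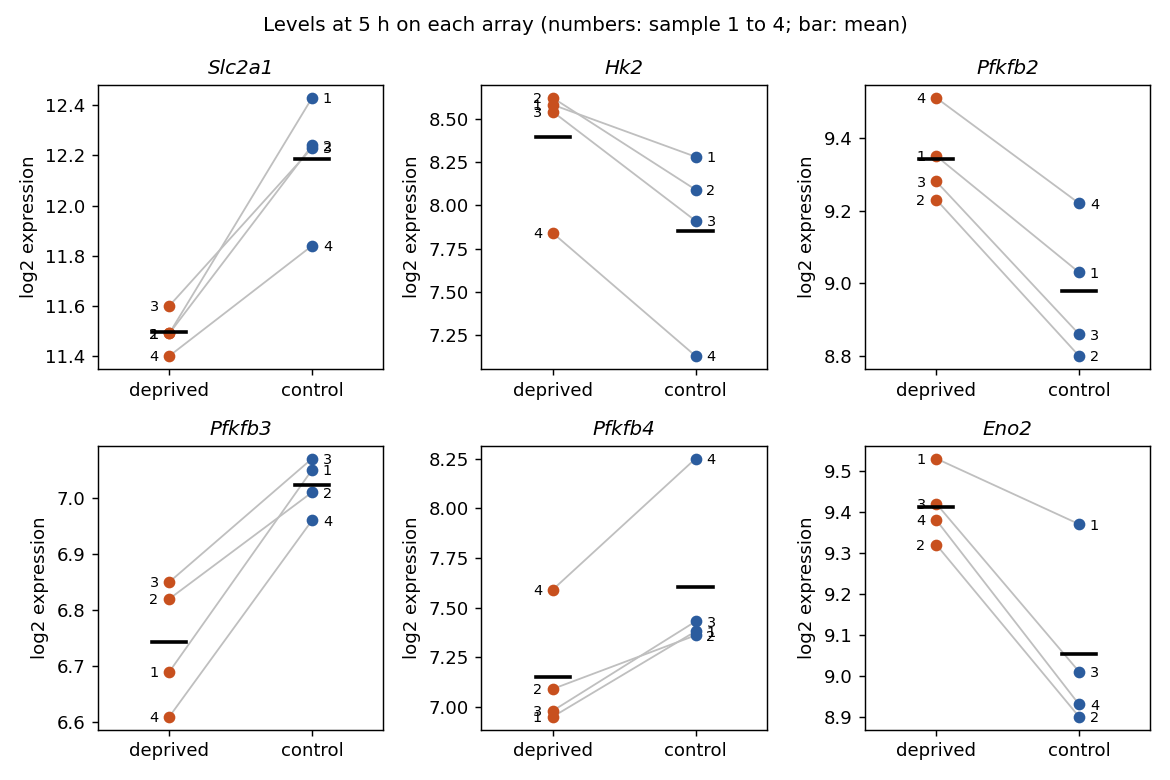
Log2 expression (y axis) of 6 genes at 5 h in deprived (left, orange) and control (right, blue) cells. Numbers beside the points are the sample numbers, grey lines join equal numbers and black bars are means. Each of the 6 genes differs in the same direction in all 4 pairs. Their choice favours this, since all 6 passed with the array number as a block, and the share of all genes that do so is not given here. Array 4 lies far from the rest for Hk2 and Pfkfb4.

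Over all 31 genes, the groups did not overlap at 5 h for Slc2a1 and Pfkfb3 (deprived lower) and for Pfkfb2 (deprived higher), against 5.38 percent of all genes lower, 5.15 percent higher and 10.5 percent in either direction. With the block 7 members passed, where 18.2 percent of all genes did. Slc2a1, Pfkfb3 and Pfkfb4 were lower (10.0 percent of all genes) and Hk2, Pfkfb2, Eno2 and Pdhb higher (8.22 percent). Without both arrays numbered 4, Slc2a1, Pfkfb3, Pfkfb4, Hk2 and Pfkfb2 passed, where 13.5 percent of all genes did. With array weights 9 passed, Pdk3 and Pdha1 in addition to those of the block, where 27.5 percent of all genes did. As shares of 31 genes these counts lie near those of all genes, so they say nothing particular to the members. The median difference of the members at 5 h was -0.03, against -0.01 for all genes.

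From aldolase to pyruvate kinase, 7 genes were measured and none passed at 5 h. Eno2, the enolase typical of neurons, was at 9.53, 9.32, 9.42 and 9.38 on deprived arrays 1 to 4 and at 9.37, 8.9, 9.01 and 8.93 on control arrays 1 to 4. It was higher in all 4 pairs, but control array 1 lay above deprived array 2. The difference was 0.36 (SE 0.11, adjusted p = 0.134 in limma; 0.00319 with the block; called without control array 1 as well), and 0.33 (adjusted p = 0.0797) without both arrays numbered 4. Eno2 also differed by 0.36 at 2 h and 0.44 at 3 h, and by -0.03 at 1 h and -0.13 at 16 h. The other 6 genes were Aldoa and Aldoc, the aldolases of muscle and of brain, Tpi1, triosephosphate isomerase, Pgk1 and Pgam1, which act on phosphoglycerate, and Pkm, pyruvate kinase. Their differences at 5 h lay between -0.13 and 0.04, and the groups of each overlapped. Aldoa was at 12.26 to 12.57 in deprived and 12.26 to 12.78 in control cells, a difference of -0.13 (SE 0.13, adjusted p = 0.911 in limma). Aldoc was at 7.37 to 7.48 in deprived and 7.33 to 7.72 in control cells, a difference of -0.08 (SE 0.09, adjusted p = 0.959). Tpi1, Pgam1 and Pkm were lower in all 4 deprived arrays than in the control arrays of the same number. Tpi1 was at 12.09 to 12.41 in deprived and 12.28 to 12.51 in control cells, a difference of -0.11 (SE 0.1, adjusted p = 0.841 in limma). Pkm was at 11.78 to 11.94 in deprived and 11.87 to 12.07 in control cells, a difference of -0.13 (SE 0.08, adjusted p = 0.629). Pgam1 differed by -0.12 (SE 0.16). Pgk1 and Pgam1 are each named by 3 rows with nearly equal differences, and since both have near-identical copies in the genome, their probes may read more than 1 gene.

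Many of the same enzymes were lower in deprived cells at 16 h, where 1 deprived and 1 control array were compared and the difference has no replicate check. Of the 31 genes, 13 were lower in deprived cells by at least 0.5 and none was higher by that amount, against 8.99 percent of all genes lower and 9.36 percent higher. By at least 1, Slc2a1, Pfkl, Pfkm, Aldoa and Pdk1 were lower, against 2.97 percent of all genes. The median difference of all 31 genes at 16 h was -0.26 and that of all named genes -0.04. Among the members, the 9 carriers had a median of -0.13. The 14 glycolytic enzymes from hexokinase to lactate dehydrogenase had a median of -0.83. At 1, 2, 3 and 5 h the median of these enzymes was -0.07, 0.01, 0.01 and -0.08. At 1, 2 and 3 h none of the 31 genes differed by 0.5 or more in either direction, where 0.557, 0.978 and 1.1 percent of all genes were lower by that amount and 0.226, 0.787 and 0.843 percent higher.

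Pfkl had the widest gap at 16 h, with 8.82 in deprived and 10.78 in control cells, 3.89-fold lower. The deprived value lay below and the control value above every other array of the series for this gene, whose other 14 values ran from 9.65 to 10.34. Pfkm was at 9.45 in deprived and 10.74 in control cells (difference -1.29), and Pfkp at 9.06 in deprived and 9.84 in control cells (-0.78). Both deprived values were the lowest of the 16 arrays. All 3 phosphofructokinase genes were thus lower at 16 h, after differences between -0.25 and 0.22 at 1 to 5 h.

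Aldoa was at 11.57 in deprived and 12.86 in control cells at 16 h, 2.44-fold lower (difference -1.29). The other 15 arrays held 12.26 to 12.92, so the deprived value stood apart. Aldoc was at 7.19 in deprived and 8.15 in control cells (-0.96), where the control value was the highest of all 16 arrays. Tpi1 was at 11.64 in deprived and 12.64 in control cells (-0.997), just short of 1. Pkm was at 11.26 in deprived and 12.17 in control cells (-0.92), and its other row differed by -0.84. Pgk1, Pgam1 and Eno2 differed less, by -0.41, -0.4 and -0.13.

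At the end of the pathway, Ldha, which turns pyruvate into lactate, was at 13.1, 13.08, 13.21 and 13.07 on deprived arrays 1 to 4 and at 13.29, 13.2, 13.19 and 13.12 on control arrays 1 to 4 at 5 h. The groups overlapped and the difference was -0.08 (SE 0.07, 95% interval -0.25 to 0.08, adjusted p = 0.854 in limma). At 16 h Ldha was at 12.87 in deprived and 13.38 in control cells (-0.5), the lowest and the highest value of the series for this gene. Ldhb, the heart-type subunit, was at 6.48 in deprived and 7.37 in control cells at 16 h (-0.89), and its other row differed by -0.34. By that other row Ldhb would not be among the 13 genes lower by at least 0.5. Both rows, with means of 6.96 and 6.4, lay below the median level of all genes, 7.475. At 5 h Ldhb was at 6.43 to 6.94 in deprived and 6.57 to 7.08 in control cells, with overlap. The difference was -0.15 (SE 0.14, adjusted p = 0.892 in limma), and the other row differed by 0.08.

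The genes that steer pyruvate into mitochondria differed among themselves. Pdk1, a kinase that switches pyruvate dehydrogenase off, was at 8.45 to 9.19 in deprived and 8.38 to 9.14 in control cells at 5 h, with a difference of 0.0 (SE 0.19, adjusted p = 1.0 in limma). At 16 h it was at 8.32 in deprived and 9.35 in control cells (-1.03, 2.04-fold lower). Pdk3, a further kinase of this group, was at 10.8, 10.77, 10.95 and 10.52 on deprived arrays 1 to 4 and at 11.19, 11.15, 10.9 and 10.76 on control arrays 1 to 4. The deprived array was lower in pairs 1, 2 and 4, and the difference was -0.24 (SE 0.12, adjusted p = 0.481 in limma). At 16 h Pdk3 was at 10.37 in deprived and 11.03 in control cells (-0.66). It was lower at 1, 2 and 3 h as well, with differences of -0.13, -0.07 and -0.24. Its mean difference over the 4 times with single arrays was -0.28 (SE 0.11), the only one among the members past an unadjusted threshold of 0.05, and did not pass (adjusted p = 0.794 in limma). Pdk2 differed by -0.03 (SE 0.22) at 5 h and -0.26 at 16 h.

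Pdha1 and Pdhb code for the alpha and beta subunits of pyruvate dehydrogenase itself. Pdhb was at 8.96, 9.04, 9.14 and 9.19 on deprived arrays 1 to 4 and at 8.85, 8.87, 8.64 and 8.98 on control arrays 1 to 4. It was higher in all 4 pairs, with overlap through control array 4. The difference was 0.25 (SE 0.09, adjusted p = 0.24 in limma; 0.0376 with the block), and 0.26 (adjusted p = 0.0646) without both arrays numbered 4. At 16 h Pdhb was at 9.32 in deprived and 8.92 in control cells (0.4), the largest positive difference among the members at that time. Pdha1 was higher in all 4 pairs at 5 h, by 0.18 (SE 0.11, adjusted p = 0.586 in limma) on average, and differed by -0.06 at 16 h.

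**Figure D3:**
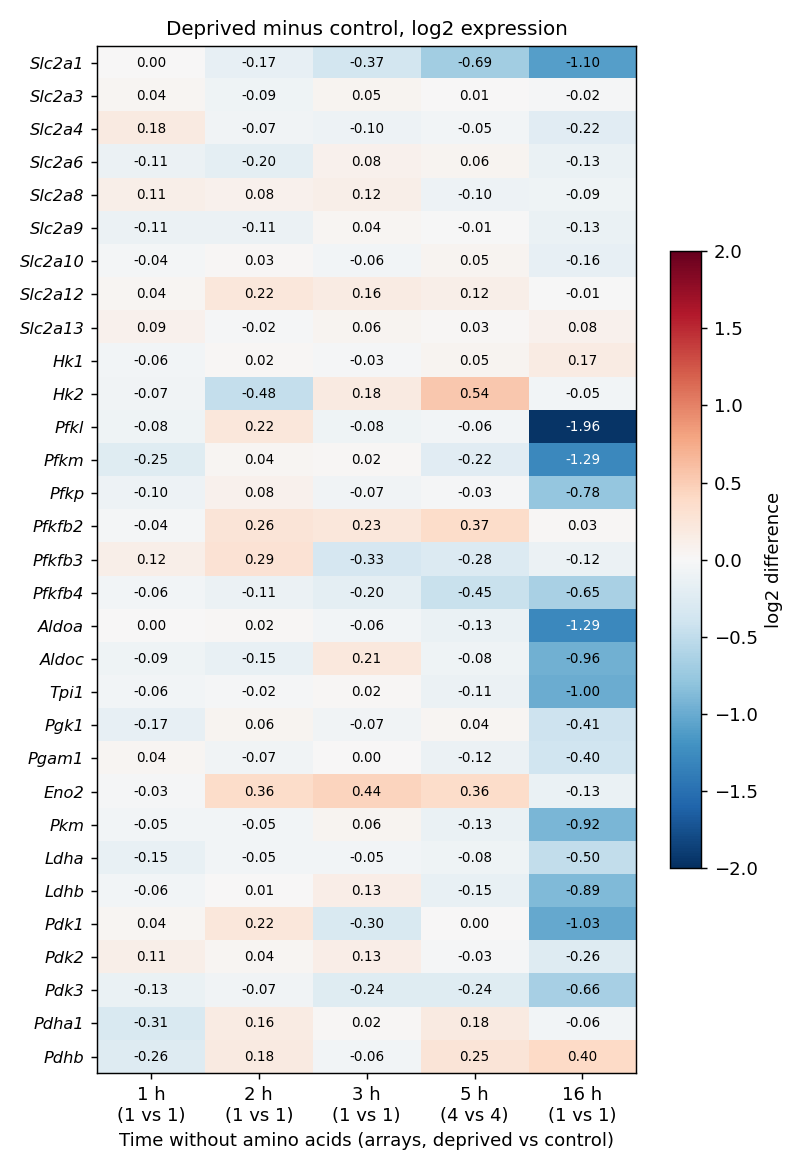
Deprived minus control log2 expression of the 31 genes (rows) at 1, 2, 3, 5 and 16 h (columns), from blue (deprived lower) to red (deprived higher). Each cell gives its value. Columns rest on 1 array per group except 5 h, with 4. The Slc2a1 row runs through 0.0, -0.17, -0.37, -0.69 and -1.1, and 13 rows lie at -0.5 or below at 16 h, none of them past 0.5 at 1 to 3 h.

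For some genes both arms contributed to the gap at 16 h. In deprived cells the 16 h array lay below the 5 h mean by at least 0.5 for 7 genes, Pfkl (-1.28), Pfkp (-0.96), Aldoa (-0.91), Pfkm (-0.69), Tpi1 (-0.68), Pkm (-0.58) and Pdk1 (-0.5). In control cells the 16 h array lay above the 5 h mean by at least 0.5 for Aldoc (0.66), Eno2 (0.65), Pfkl (0.63) and Pdk1 (0.53). Of these, Eno2 differed by only -0.13 between deprived and control cells at 16 h. Only falls in deprived cells and rises in control cells were counted. The shares of all genes past these cuts are not given here, so the counts describe the members alone. For Pfkp the control array of 16 h lay below the 5 h mean (-0.21). The 5 h means include array 4, the lowest of both groups for Pfkl and Pdk1 among others. The deprived 16 h value was the lowest of all 16 arrays for 12 of the 31 genes, against 12.6 percent of all genes, and the control 16 h value was the highest for 12, against 9.7 percent. For Slc2a1 the parts were -0.26 in deprived and 0.15 in control cells, and most of its difference was already present at 5 h. The count depends on level. Of the 22 members above the median level 11 were lower by at least 0.5, against 16.0 percent of all such genes, and of the 9 others 2 were, against 1.97 percent.

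**Figure D4:**
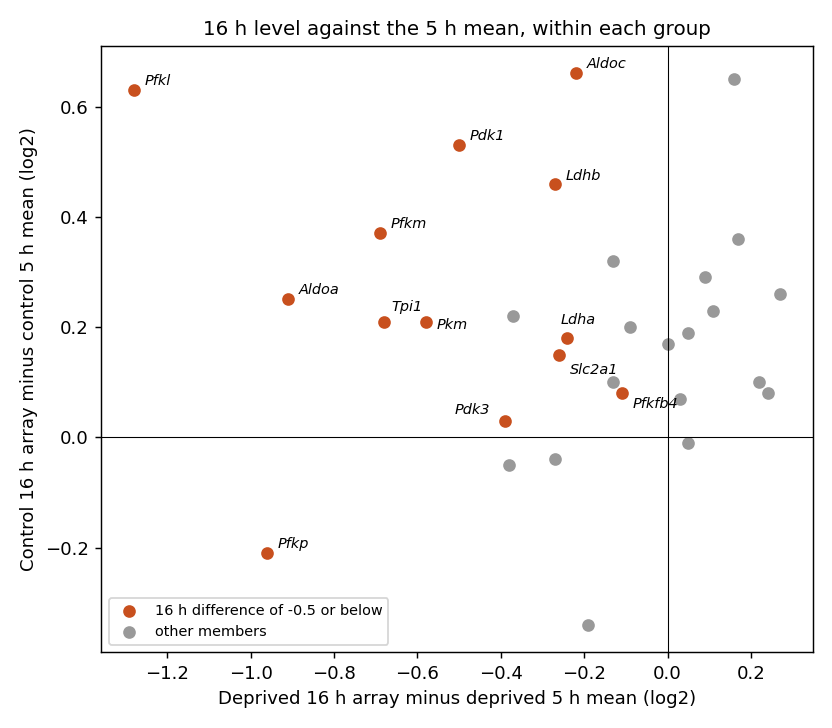
Each point is a gene. The x axis is the deprived 16 h array minus the mean of the 4 deprived 5 h arrays, and the y axis the control 16 h array minus the mean of the 4 control 5 h arrays, both in log2 units. Orange points are the 13 genes lower by at least 0.5 in deprived cells at 16 h, and grey points the other 18. Pfkl (-1.28 and 0.63) is far out on both axes, whereas Aldoc differs mainly through its control value and Pfkp through its deprived value.

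Promoters were read from RefSeq (GRCm38.p6, 250 bases before to 50 after a start site), because glycolytic genes are known for sites of the hypoxia-inducible factors and of Myc, and 29 of the 31 genes matched. The windows searched were 43, as some genes have several starts. The letters ACGTG and GCGTG (core of the hypoxia-inducible factor site), CACGTG (an E-box, bound by Myc and others, which contains ACGTG on both strands) and TGATGNAA (core of the amino acid response element, bound by Atf4) were searched on both strands. ACGTG was found in 16 of 29 members (55.2 percent), against 24.4 percent of the tested genes with a window. GCGTG was found in 18 members (62.1 percent, against 44.4 percent of tested genes), and CACGTG in 5 (17.2 percent, against 9.5 percent of tested genes). Since a gene with more windows has more chances to hold a motif, the shares of windows are given too. ACGTG was in 46.5 percent of the 43 member windows, against 21.6 percent of the windows of tested genes and 19.6 percent of all windows. GCGTG was in 51.2 percent of member windows, against 40.9 and 32.4 percent, and CACGTG in 11.6 percent, against 8.24 and 7.15 percent. TGATGNAA was in no member's window and in 3.62 percent of tested genes, and in 3.97 percent of all windows, which says only that these letters are not in these windows. Of the 13 members lower by at least 0.5 at 16 h 7 held ACGTG, and of the 16 others with a window 9 did. For GCGTG these counts were 10 and 8. The 3 windows shown are those of the gene called at 5 h, of the gene with the widest gap at 16 h and of the lactate-forming enzyme. They lie at chr4:119108495-119108794 on the plus strand, chr10:78009758-78010057 on the minus strand and chr7:46845554-46845853 on the plus strand, and capitals mark the searched letters, which read CACGT or CACGC where they lie on the other strand.
Slc2a1: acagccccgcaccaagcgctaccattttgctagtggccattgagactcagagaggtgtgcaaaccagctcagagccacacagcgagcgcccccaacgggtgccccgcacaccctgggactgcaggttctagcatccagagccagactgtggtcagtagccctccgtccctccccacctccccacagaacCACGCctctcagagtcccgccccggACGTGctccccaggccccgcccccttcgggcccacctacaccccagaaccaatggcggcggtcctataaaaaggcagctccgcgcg
Pfkl: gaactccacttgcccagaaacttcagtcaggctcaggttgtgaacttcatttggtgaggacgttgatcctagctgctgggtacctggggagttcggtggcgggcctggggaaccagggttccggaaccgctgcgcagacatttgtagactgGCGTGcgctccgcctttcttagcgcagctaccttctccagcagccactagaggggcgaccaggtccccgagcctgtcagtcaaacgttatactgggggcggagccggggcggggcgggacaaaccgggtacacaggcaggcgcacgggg
Ldha: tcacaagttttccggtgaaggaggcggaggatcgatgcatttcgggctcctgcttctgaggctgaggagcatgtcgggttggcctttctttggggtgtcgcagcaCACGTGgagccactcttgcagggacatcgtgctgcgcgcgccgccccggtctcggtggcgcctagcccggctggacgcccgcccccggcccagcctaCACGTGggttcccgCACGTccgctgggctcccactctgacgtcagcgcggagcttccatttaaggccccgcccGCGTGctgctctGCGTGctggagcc
The Slc2a1 window holds 1 ACGTG and 1 GCGTG, and the Pfkl window 1 GCGTG. The Ldha window shown holds 2 GCGTG and 5 ACGTG, of which 4 lie in 2 CACGTG. No other member window holds as many ACGTG. Ldha has 2 windows, and the one not shown holds 2 GCGTG and no ACGTG or CACGTG. A match is a description of the letters and not a bound site.

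Other genes of glucose metabolism were counted in 8 lists, 105 measured genes in all, none of them a member. At 5 h, 5 were called higher and 3 lower, where 2.41 percent of all genes were called higher and 1.7 percent lower. With the block 16 were higher and 21 lower, against 8.22 and 10.0 percent of all genes. Without both arrays numbered 4, 14 were higher and 17 lower, against 13.5 percent of all genes in either direction. The lists were chosen with earlier results known, and their shares were not tested against those of all genes. Pck2, the mitochondrial enzyme that makes phosphoenolpyruvate, was at 10.79 to 11.03 in deprived and 9.7 to 9.94 in control cells at 5 h, without overlap. It rose by 1.05 (SE 0.09, adjusted p = 0.000187 in limma), the only one of 7 gluconeogenesis genes called, and differed by 0.37, 0.43, 0.66 and 0.85 at 1, 2, 3 and 16 h. Rpia, an isomerase of the pentose phosphate pathway, was at 8.51 to 8.77 in deprived and 7.78 to 8.06 in control cells and rose by 0.71 (SE 0.09, adjusted p = 0.00258), the only one of 10 genes of that pathway called. At 16 h Rpia differed by 1.31, whereas Pgd, the decarboxylating dehydrogenase of the same pathway, differed by -1.39.

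Among 14 glycogen genes Pygb, the brain glycogen phosphorylase, and Phkb, a subunit of its activating kinase, fell by 0.58 (SE 0.13, adjusted p = 0.0422) and 0.4 (SE 0.09, adjusted p = 0.0451) at 5 h in limma. None rose. At 16 h Pygb differed by -1.42, Phkb by only -0.14 and Pgm1, phosphoglucomutase, by -1.41. Among 12 genes of pyruvate entry and the dehydrogenase complex, Pdp1, the phosphatase that reverses the PDK kinases, fell by 0.31 (SE 0.07, adjusted p = 0.0425 in limma). At 16 h Pdp1 differed by -1.27, while the differences of this list ran from -1.27 to 0.87 with a median of 0.02. Of 7 hexosamine pathway genes Oga rose by 0.41 (SE 0.09, adjusted p = 0.035 in limma). Gnpnat1 differed by 0.62 (SE 0.18, adjusted p = 0.11, and 0.00014 with the block) at 5 h and by 2.45 at 16 h. Others went the other way, with Gfpt1, Pgm3 and Uap1 differing by -0.39, -0.49 and -0.47 at 5 h. With the block 4 genes of this list were higher and 3 lower, against 8.22 and 10.0 percent of all genes. None of 16 citric acid cycle genes and none of 17 further glycolytic isoforms and sugar carriers was called, with median differences of -0.13 and -0.01 at 5 h; with the block 4 citric acid cycle genes were lower (10.0 percent of all genes) and 1 further isoform higher (8.22 percent). Of the 18 other settings Pdp1 and Phkb lost their call in 9 each and Pygb and Oga in 7 each, among them the fits without deprived array 1, 2 or 3 or without control array 1 or 2. The calls of Pck2 and Rpia were lost in none.

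Of 22 regulators of glucose uptake and glycolysis, Myc and Prkaa2 rose at 5 h. Myc, which drives many glycolytic genes, was at 11.45 to 11.69 in deprived and 9.65 to 10.52 in control cells, a rise of 1.34 (SE 0.18, adjusted p = 0.00268 in limma), and differed by 2.18 at 16 h. Prkaa2, a catalytic subunit of the energy sensor AMPK, rose by 0.4 (SE 0.09, adjusted p = 0.0334), a call lost in 8 of the 18 other settings, whereas that of Myc was lost in none. Txnip and Arrdc4, arrestin-like proteins known to lower glucose uptake, differed by 0.98 (SE 0.36, adjusted p = 0.228) and 0.58 (SE 0.16, adjusted p = 0.088). Both passed with the block (adjusted p = 3.11e-05 and 0.000439), and they differed by 1.78 and 0.92 at 16 h. Hif1a differed by 0.03 (SE 0.07) at 5 h and 0.11 at 16 h. Epas1, which codes for another hypoxia-inducible factor, was at 8.03 in deprived and 11.44 in control cells at 16 h (-3.41), and Egln3, a hydroxylase acting on these factors, at 6.82 in deprived and 8.59 in control cells (-1.78). At 5 h Epas1 differed by -0.49 (SE 0.29, adjusted p = 0.577; 0.00111 with the block), with deprived values of 10.28 to 11.58 and control values of 11.05 to 11.89.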

How the data were processed

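Biotinylated cDNA of total RNA was measured on Affymetrix whole-transcript arrays, as the labels' protocols state. The deposited table (35556 rows, 16 arrays) holds log2 values from RMA, made by the authors, according to the submitters' processing notes; settings are not given in the sources used here. Of its rows 21789 carry 1 gene symbol, 1621 several and 12146 none. Symbols were updated by Entrez identifier (21698 rows), leaving 19938 genes. Deprived and control arrays of 5 h (4 each) were fitted with limma 3.58.1 in R 4.3.3 (eBayes, two-sided, Benjamini-Hochberg across all genes, threshold 0.05). For 1, 2, 3 and 16 h, with 1 array per group, differences were taken, and their mean was tested in a limma model holding time as a factor. Python 3.11.15, pandas 2.3.3 and matplotlib 3.10.9 made tables and plots.

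At 5 h, same-numbered arrays deviated from their group means with correlations of 0.354, 0.584, 0.467 and 0.896. All exceed 0.1, so numbers were taken as pairs and fitted as a block beside the main fit. Among numbers 1 to 3 alone the correlations were 0.193, -0.00305 and -0.2, so number 4 carries the pairing; why samples bear these numbers is not given in the sources used here.

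The members, lists and tests were chosen with earlier results of these data known. All members are named. Full values went to those called at 5 h in the main fit, with the block or without both arrays numbered 4, to those differing by at least 0.5 at 1, 2, 3 or 16 h, and to Slc2a1, Slc2a3, Hk2, Pfkfb3, Pkm, Ldha and Pdk1. Of each pathway list up to 4 called genes were named. Pgd, Pgm1, Gnpnat1, Gfpt1, Pgm3, Uap1, Txnip, Arrdc4, Hif1a, Epas1 and Egln3 were chosen after their values were seen. In a simulation on 19938 genes, the 5 h test recovered 57.5 percent of 80 genes changed by 0.5 and 82.5 percent of 80 changed by 1. For the mean over the other times these shares were 28.75 and 76.25 percent. The simulation gave a changed gene the same shift at every time and drew the error of each array independently. It holds neither differences that grow with time nor a deviation shared by the arrays numbered 4. The shares therefore do not give the recovery to be had in the real data. Alternatives were the block, a further quantile normalization, median centring, genes above the median level, the mean of a gene's rows, a trended and robust prior, array weights, all 16 arrays, each array or time left out, both arrays numbered 4 left out and, added after the data were seen, rows listing a RefSeq mRNA.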

Additional observations from a re-analysis of the deposited data

Results flagged for a closer look

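For 7 of the 62 sets of 4 arrays at 5 h, a single array lay far from the other 3, judged by its gap to the nearest array over the whole range of the set (Dixon's 95% criterion); chance marks about 1 such set in 20. In each, the array numbered 4 was the distant one. It lay low for Hk2 (0.904 of the range), Aldoa (0.902), Tpi1 (0.85) and Pgam1 (0.853) in deprived cells, and for Pgam1 (0.876) and Slc2a10 (0.875) in control cells. It lay high for Pfkfb4 in control cells (0.927).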

How the results depend on the processing

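The fall of Slc2a1 at 5 h kept its direction and its side of the threshold in the 18 other settings, some of which leave its values unchanged. Over all genes, 820 passed at 5 h, against 3632 with the replicate block, 5485 with array weights, 2695 without both arrays numbered 4 and 382 to 1066 with a single array left out (936 without deprived and 1066 without control array 4, 382 to 521 without any other). Among the members 1 passed, against 7 with the replicate block, 3 with the quantile normalization (Pfkfb2 and Pfkfb3 beside Slc2a1), 9 with array weights (Pdha1 and Pdk3 in addition to those of the block), 5 without both arrays numbered 4 and 1 to 2 with a single array left out (Eno2 without control array 1 and Pfkfb2 without control array 4). Of the 105 pathway genes 8 passed, against 37 with the replicate block, 16 with the quantile normalization, 5 with median centring, 45 with array weights, 31 without both arrays numbered 4 and 3 to 14 with a single array left out (7 without deprived and 14 without control array 4, 3 or 4 without any other). For the mean over 1, 2, 3 and 16 h, 0 genes passed, against 0 to 35 with a single time left out (35 without 16 h, none of them a member) and 1037 with the 5 h arrays added, which make up 8 of the 16 in that fit, Slc2a1 being the 1 member among them. At 3 h 1 member, Eno2 (0.504), differed by at least 0.5 after the quantile normalization, and at 16 h 5 did at a minimum of 1 and 13 at 0.5. The count at 0.5 was 12 with the quantile normalization and 12 with median centring. Preferring rows that list a RefSeq mRNA, a choice made after the data were seen, made it 14 through Hk1. In an alternative also added then, the deprived 16 h array was the lowest for 15 members without both arrays numbered 4, against 12 with them. Leaving arrays out can only keep or raise this count, so the rise says nothing about the members. The share of all genes without these arrays is not given here. The call of Slc2a1 at 5 h never changed sign. The 16 h values rest on 1 array per group, so their error is unknown.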
